A study of Mus musculus with 6 samples.

Results

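The genes described here are the eukaryotic translation initiation factor genes of the mouse, taken as every protein-coding gene whose GENCODE symbol begins with Eif and a digit from 1 to 6. The rule found 55 of the 53801 genes counted in each tumour, and it used no measured value. Another 11 annotated genes with such a symbol, mostly processed pseudogenes, are not protein-coding and were left out. The RNA came from small pieces of subcutaneous tumours grown from the mouse melanoma line B16-F10 in wild type male C57BL/6 mice aged 10 to 12 weeks. The cells of 3 tumours (SEVO) were primed ahead of injection, in a closed chamber that was flushed with 2% sevoflurane, a volatile anaesthetic, in normal air for 30 min and then left for another 2 h. The cells of the other 3 tumours (CTRL) were not primed. The cells were injected into awake mice, within 2 h of priming by the study's methods and after 24 h by a figure legend. Each tumour is a mixture of one cell line and host cells that grew for weeks after a single exposure, so a difference between the groups is measured long after the gas was gone.

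Translation initiation brings a ribosome to the start codon of an mRNA. In outline, eIF2 carries the initiator tRNA to the small ribosomal subunit, eIF1, eIF1A, eIF3 and eIF5 help this complex to scan for the start codon, and the eIF4 proteins bind the cap of the mRNA and unwind its leader. eIF5B joins the large subunit, and eIF6 keeps the subunits apart. The best known brakes are the Eif2ak kinases, which phosphorylate eIF2 under stress and so block its recycling by eIF2B, and the eIF4E-binding proteins, which sequester the cap-binding protein. In tumours, including melanoma, initiation is known as a step that growth signals act on.

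The counts were shallow, with 723431 to 1348676 reads counted on genes per tumour, between 2.06% and 4.61% of the uniquely aligned reads. Another 95.4% to 97.9% were tallied as lying on no feature, and whether they lay outside genes or within them was not tested. The strand setting of the counting is not given in the sources used here, and whether the reads counted on an Eif gene, with or without a neighbour on the opposite strand, came from its own strand was not tested. The libraries also differed in the share of counted reads on the predicted genes Gm10801 and Gm10800, which was 49.0%, 1.31% and 35.5% in CTRL tumours 1 to 3 and 7.97%, 8.71% and 18.7% in SEVO tumours 1 to 3. The labels call the tissue melanoma and the cell type monocytes. All 9 melanocyte markers had reads, led by Dct with 206 to 619 per tumour, while the 9 monocyte and macrophage markers summed to 157 to 277 reads per tumour. Most of these lay on Csf1r, with 88 to 257 reads, while Cd68 had 7 to 17, Lyz2 0 to 4 and Cd14 0 to 2. Values are given as CPM, reads per 1000000 counted reads after TMM scaling of the libraries. In bulk tissue, fewer cells of a type and less RNA per cell cannot be told apart.

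To show the stretches from which these genes start, the 250 bases upstream of the first RefSeq start (GRCm38.p6) were read for the 43 Eif genes that matched by symbol. They are printed for Eif3a and Eif4b, which were among the members with the lowest p-values, and for Eif2ak1 and Eif3d, of which the first had more and the second fewer reads than its neighbours on the opposite strand. The windows are chr19:60790694-60790943 on the minus strand, chr15:102073523-102073772 on the plus strand, chr5:143817542-143817791 on the plus strand and chr15:77970825-77971074 on the minus strand, each printed 5′ to 3′ on the strand of the gene. Capitals mark every match, on either strand, to the GC box GGGCGG, the CCAAT box CCAAT, the TATA box TATAAA, the E-box CACGTG, the cyclic AMP response element TGACGTCA and the ETS site CCGGAAG, none of which contains another.
Eif3a: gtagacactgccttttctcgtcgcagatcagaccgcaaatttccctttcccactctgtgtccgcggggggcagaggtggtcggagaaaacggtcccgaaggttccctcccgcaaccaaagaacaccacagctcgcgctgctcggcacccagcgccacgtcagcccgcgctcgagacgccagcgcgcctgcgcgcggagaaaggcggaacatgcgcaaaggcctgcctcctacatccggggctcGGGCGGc
Eif4b: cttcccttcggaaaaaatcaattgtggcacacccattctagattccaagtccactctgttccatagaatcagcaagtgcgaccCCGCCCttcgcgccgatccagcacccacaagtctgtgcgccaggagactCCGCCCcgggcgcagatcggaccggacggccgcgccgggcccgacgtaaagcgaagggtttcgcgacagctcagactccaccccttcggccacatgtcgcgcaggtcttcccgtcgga
Eif2ak1: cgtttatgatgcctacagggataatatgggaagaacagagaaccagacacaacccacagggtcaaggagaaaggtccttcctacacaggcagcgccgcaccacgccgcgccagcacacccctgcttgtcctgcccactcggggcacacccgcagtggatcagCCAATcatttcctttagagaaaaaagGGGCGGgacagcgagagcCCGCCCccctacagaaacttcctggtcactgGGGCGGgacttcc
Eif3d: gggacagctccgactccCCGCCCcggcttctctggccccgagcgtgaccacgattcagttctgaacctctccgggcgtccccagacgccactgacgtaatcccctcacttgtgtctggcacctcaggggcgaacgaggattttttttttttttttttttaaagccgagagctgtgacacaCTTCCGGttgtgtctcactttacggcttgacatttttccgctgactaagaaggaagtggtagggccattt
Eif2ak1 had 3 GC boxes and 1 CCAAT box, Eif4b had 2 GC boxes, Eif3a had 1 GC box, and Eif3d had 1 GC box and 1 ETS site. A GC box was present in 31 of the 43 Eif windows (72.1%), against 33.0% of 27025 promoter windows of the same length. An ETS site was present in 23.3% against 7.07%, an E-box in 16.3% against 6.04%, a CCAAT box in 27.9% against 34.5% and a TATA box in 9.30% against 13.0%. The cyclic AMP response element was in none of the 43 and in 1.60% of all. The Eif windows were also richer in G and C, with a median of 59.2% against 52.0%. These matches describe letters only, and no binding was measured.

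All 55 Eif genes had at least 1 read, but the counts were low, with a median of 74 reads per gene over the 6 tumours. At least 10 reads in every tumour were present in 14 of them. The filter on low counts kept 29 Eif genes, with 60 to 4091 reads over the 6 tumours, and these were tested among 7561 genes. The 26 others had 1 to 57 reads. Among the tested members were 4 of 11 genes of eIF2, eIF2A, eIF2B and eIF2D, 3 of 4 Eif2ak kinases, 9 of 14 eIF3 genes, 9 of 16 eIF4 genes and 4 of 4 eIF5 genes, while none of the 5 eIF1 genes and not Eif6 passed. The standard error (SE) of the log2 fold change ran from 0.33 for Eif4enif1 to 0.75 for Eif4e2 among the tested members.

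**Figure D1:**
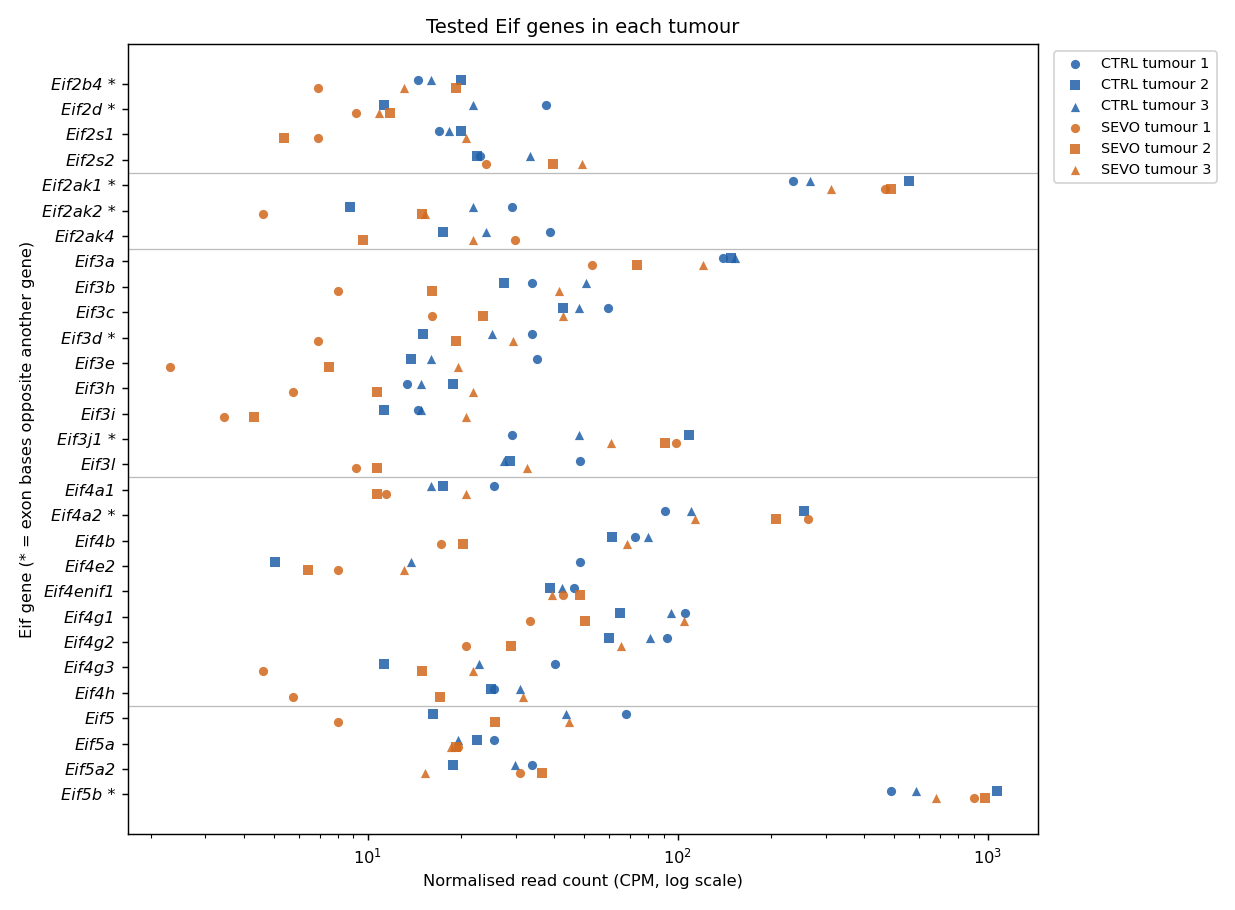
Normalised read count (CPM, log axis) of the 29 tested Eif genes in each of the 6 tumours, blue for CTRL and orange for SEVO, with a symbol for each tumour number and grey lines between factors. Eif5b, Eif2ak1 and Eif4a2 lie far to the right, and in Eif3b, Eif3l and Eif4b SEVO tumours 1 and 2 lie to the left of every CTRL tumour while SEVO tumour 3 lies among them.

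The comparison of SEVO with CTRL asks whether priming of the cells left a lasting mark on the transcriptome of the tumour. At an adjusted p under 0.05 in the quasi-likelihood test of edgeR, 0 of the 29 tested Eif genes differed, as did 0% of all tested genes, and the lowest adjusted p of a member was 0.741. DESeq2, fitted to all 55 Eif genes among the 42423 genes with at least 1 read, also called 0 at that level. At an unadjusted p under 0.05 DESeq2 found 0 Eif genes, beside 0.625% of all genes. At the thresholds of the study, an unadjusted p under 0.02 with a fold of at least 1.5, edgeR called 0 of 29, where 1.04% of all tested genes passed. An unadjusted p under 0.05 was reached by 2 members, Eif4g2 and Eif3a, or 6.90% of those tested against a background of 4.36%. Of the 29, 22 had a lower and 7 a higher value in SEVO tumours, with a median log2 fold change of -0.51, beside 51.1% lower and a median of -0.02 over all tested genes. A single tumour weighed on these values. Without SEVO tumour 3, the median of the Eif genes was -1.07 and 6 of 30 passed the thresholds of the study, beside 5.71% of all genes. Those were Eif3a, Eif3b, Eif3c, Eif3l, Eif4b and Eif4g2, all lower in SEVO tumours. Without CTRL tumour 2, 5 of 31 passed, beside 16.2% of all genes, with Eif3j1 and Eif4a2 higher and Eif2ak3, Eif4e2 and Eif4g2 lower. No Eif gene had an adjusted p under 0.05 in any of these fits. Over all genes, 31 of 8961 did without CTRL tumour 2 and 0 of 8383 without SEVO tumour 3. With each tumour left out in turn, the log2 fold change ranged from -1.59 to -0.66 for Eif4g2, from -1.16 to -0.53 for Eif3a and from -1.87 to -0.63 for Eif4b, and from 0.04 to 0.89 for Eif2ak1.

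**Figure D2:**
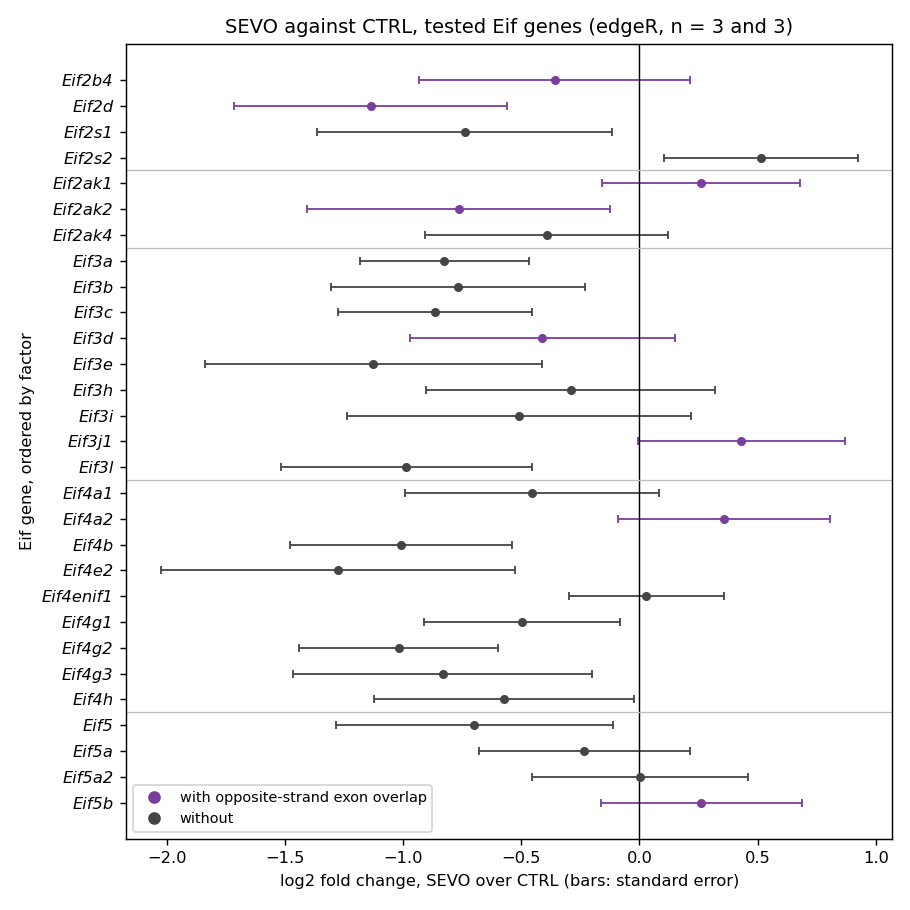
log2 fold change of SEVO over CTRL for the 29 tested Eif genes from edgeR, with bars of 1 standard error, ordered by factor, in purple where exons lie opposite another gene. Of the points, 22 lie left of 0, and they run from -1.28 for Eif4e2 to 0.51 for Eif2s2.

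The 14 eIF3 genes encode the subunits of the large scaffold that holds the small ribosomal subunit and the other factors together, apart from the loosely attached eIF3j, and Eif3j2, a copy of Eif3j1. Of the 9 tested, 8 were lower in SEVO tumours, with a median log2 fold change of -0.77, and none passed the adjusted threshold. Eif3a (ENSMUSG00000024991.7, chromosome 19, 60761117 to 60790658, minus strand) encodes the largest subunit and had 140, 148 and 153 CPM in CTRL and 52.9, 74.0 and 121 CPM in SEVO tumours. The 3 CTRL tumours lay close together and above every SEVO tumour, and the SEVO tumours spread over a wide range. The means were 147 ± 6.59 and 82.7 ± 34.9 CPM (SD, n = 3 each), and the log2 fold change was -0.83 ± 0.36 (SE, adjusted p = 0.741 from edgeR). The exact two-sided permutation test gave p = 0.1, the smallest that 3 tumours against 3 can give. Eif3c (ENSMUSG00000030738.11, chromosome 7, 126546455 to 126566411), another core subunit, had 59.5, 42.6 and 48.2 CPM in CTRL and 16.1, 23.6 and 42.5 CPM in SEVO tumours. Its groups were apart by a margin of less than a read, and in raw reads, with 49, 34 and 42 against 14, 22 and 39, they overlapped. The log2 fold change of Eif3c was -0.86 (SE 0.41, adjusted p = 0.741 from edgeR). Eif3a and Eif3c were the only members of the 29 whose groups did not overlap in CPM, both with SEVO below, or 6.90% of those tested. Among all tested genes, 8.56% did not overlap in either direction and 4.39% had SEVO below, so the share of Eif genes was near the background.

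In the other tested eIF3 genes the groups overlapped. Eif3b, Eif3e and Eif3l had log2 fold changes of -0.77, -1.13 and -0.99 (SE 0.54, 0.71 and 0.53), and Eif3d, Eif3h and Eif3i had -0.41, -0.29 and -0.51 (SE 0.56, 0.61 and 0.73). In Eif3b, for example, CTRL tumours had 34.0, 27.6 and 50.5 CPM and SEVO tumours 8.05, 16.1 and 41.4 CPM, with SEVO tumour 3 again inside the CTRL range. Eif3j1 was the exception in direction. It had 29.1, 109 and 48.2 CPM in CTRL and 98.9, 91.2 and 61.1 CPM in SEVO tumours, a log2 fold change of 0.43 ± 0.44 (SE, adjusted p = 0.773 from edgeR). CTRL tumour 2 held the highest value and CTRL tumour 1 the lowest. The untested Eif3f, Eif3g, Eif3k and Eif3m had at most 15 reads in any tumour, and Eif3j2 had 1 read in all.

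The eIF4 group, taken by symbol, holds the factors that bind the capped end of the mRNA and also genes such as the eIF4E-binding inhibitors. Of its 9 tested genes, 7 were lower and 2 higher in SEVO tumours, with a median log2 fold change of -0.57. The 3 eIF4G scaffolds, which bind eIF3 and eIF4A, were all lower. Eif4g2 (ENSMUSG00000005610.17, chromosome 7, 111067750 to 111083030, minus strand), a scaffold that lacks the site for the cap-binding protein, had the lowest p of all members. It had 92.3, 60.2 and 81.5 CPM in CTRL and 20.7, 29.0 and 65.4 CPM in SEVO tumours, so that SEVO tumour 3 lay above CTRL tumour 2. The means were 78.0 ± 16.3 and 38.4 ± 23.8 CPM (SD, n = 3 each), with a fitted fold of 0.493 and a log2 fold change of -1.02 ± 0.42 (SE, unadjusted p = 0.0307, adjusted p = 0.741 from edgeR). Eif4g1, the main scaffold, had 106, 65.2 and 95.2 CPM against 33.3, 50.4 and 105, and Eif4g3 had 40.1, 11.3 and 23.0 CPM against 4.60, 15.0 and 21.8. In both genes the groups overlapped, with log2 fold changes of -0.50 (SE 0.41) and -0.83 (SE 0.63).

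Eif4b (ENSMUSG00000058655.9, chromosome 15, 102073773 to 102097173), which stimulates the helicase eIF4A, had 72.8, 61.5 and 80.3 CPM in CTRL and 17.2, 20.4 and 68.7 CPM in SEVO tumours. SEVO tumours 1 and 2 lay far below every CTRL tumour and SEVO tumour 3 among them, for a log2 fold change of -1.01 ± 0.47 (SE, adjusted p = 0.741 from edgeR). The estimates of the helicase genes differed in sign. Eif4a1, as a rule the abundant copy in dividing cells, had 25.5, 17.6 and 16.1 CPM against 11.5, 10.7 and 20.7, a log2 fold change of -0.46 ± 0.54 (SE). Eif4a2 (chromosome 16, 23107444 to 23114136) had 91.1, 256 and 110 CPM against 263, 208 and 113, a log2 fold change of 0.36 ± 0.45 (SE). Per kilobase of exon, the level of Eif4a2 was 32.5 CPM and that of Eif4a1 3.93 CPM. Reads shared by such paralogs or by processed pseudogenes are not assigned when only unique alignments are counted, so both levels carry that uncertainty, and 514 exon bases of Eif4a2 and 287 of Eif4a1 also belong to other genes on the same strand.

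The cap-binding proteins had few reads. Eif4e itself, the limiting cap-binding protein, had 13, 5 and 8 reads in CTRL and 2, 11 and 9 in SEVO tumours and was not tested. Eif4e2, a weaker cap binder linked to repression and hypoxia, had the most negative estimate of all tested members, -1.28 (SE 0.75, adjusted p = 0.741 from edgeR), on 48.6, 5.02 and 13.8 CPM against 8.05, 6.44 and 13.1. That estimate rested on CTRL tumour 1, and without this tumour it was -0.04. The inhibitors Eif4ebp1, Eif4ebp2 and Eif4ebp3 were all below the filter. Eif4ebp1 had 11, 6 and 7 reads against 4, 3 and 11, Eif4ebp2 had 24, 2 and 9 against 2, 4 and 7, and Eif4ebp3 had 1 or 2 reads in every tumour. Eif4enif1, which carries eIF4E to the nucleus, had 46.1, 38.9 and 42.5 CPM against 42.5, 48.3 and 39.3 and a log2 fold change of 0.03 ± 0.33 (SE), with fully mixed groups. It was named after its values were seen.

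The subunits of eIF2 did not share a direction. Eif2s2 (chromosome 2, 154871410 to 154892935), the beta subunit, had 23.1, 22.6 and 33.3 CPM in CTRL and 24.1, 39.7 and 49.1 CPM in SEVO tumours, the largest positive estimate among tested members with a log2 fold change of 0.51 ± 0.41 (SE, adjusted p = 0.748 from edgeR). Eif2s1, the alpha subunit that the kinases phosphorylate, had 14, 16 and 16 reads against 6, 5 and 19, a log2 fold change of -0.74 ± 0.62 (SE). The groups of both genes overlapped. The gamma subunit is encoded on both sex chromosomes in mice, and Eif2s3x had 6, 0 and 4 reads against 2, 0 and 3, while Eif2s3y had 1 read in CTRL tumour 3 and none elsewhere. Of the 5 subunits of eIF2B, the exchange factor that recycles eIF2, Eif2b4 was tested, with 14.6, 20.1 and 16.1 CPM against 6.90, 19.3 and 13.1 and a log2 fold change of -0.36 ± 0.57 (SE). Eif2d, a factor for non-canonical initiation, had 37.6, 11.3 and 21.8 CPM against 9.20, 11.8 and 10.9, a log2 fold change of -1.14 ± 0.58 (SE, adjusted p = 0.741 from edgeR). It was -0.63 without CTRL tumour 1.

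The 4 kinases of eIF2 sense different stresses, haem shortage or mitochondrial stress for Eif2ak1 (HRI), double-stranded RNA for Eif2ak2 (PKR), unfolded protein in the endoplasmic reticulum for Eif2ak3 (PERK) and amino acid shortage for Eif2ak4 (GCN2). Eif2ak1 (ENSMUSG00000029613.15, chromosome 5, 143817788 to 143904251) stood out by level, with 236, 556 and 267 CPM in CTRL and 467, 487 and 313 CPM in SEVO tumours. Its groups overlapped, with both the highest and the lowest value in CTRL tumours, and the log2 fold change was 0.26 ± 0.42 (SE, adjusted p = 0.828 from edgeR). Eif2ak2 had 29.1, 8.78 and 21.8 CPM against 4.60, 15.0 and 15.3, and Eif2ak4 had 38.9, 17.6 and 24.1 CPM against 29.9, 9.65 and 21.8. Their log2 fold changes were -0.77 (SE 0.64) and -0.39 (SE 0.52). Eif2ak3 had 20, 2 and 18 reads against 4, 1 and 8 and did not pass the filter.

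The factors of start codon choice and subunit joining stood far apart in level. Eif5b (ENSMUSG00000026083.12, chromosome 1, 37998010 to 38055579) had more reads than any other member, 400, 851 and 513 in CTRL and 786, 915 and 626 in SEVO tumours. In CPM these were 486, 1067 and 589 against 904, 982 and 683, with overlapping groups and a log2 fold change of 0.26 ± 0.43 (SE, adjusted p = 0.829 from edgeR). Eif5b alone held 4091 of the reads counted over the 6 tumours. The other eIF5 genes were tested at far lower levels, and they were named after their values were seen. Eif5, the activator of GTP hydrolysis by eIF2, had a log2 fold change of -0.70 ± 0.59 (SE), Eif5a, which eases elongation and termination, -0.23 (SE 0.45), and its paralog Eif5a2 0.00 (SE 0.46). The eIF1 genes and Eif6 had at most 15 reads in any tumour. Eif1, in most cells an abundant mRNA, had 4, 7 and 3 reads in CTRL and 1, 5 and 6 in SEVO tumours.

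The 3 members with the highest levels shared a feature that the rule did not use, exons that lie opposite exons of another gene. In the annotation, 14 of the 55 Eif genes have such bases, in 16 pairs, and 8 of the 14 were tested. Per kilobase of exon, the 8 ranged from 2.32 to 80.5 CPM with a median of 9.14, and the 21 tested members without overlap from 1.74 to 13.1 CPM with a median of 5.48. The ratio of the medians was 0.866, 2.93 and 1.13 in CTRL and 3.70, 3.06 and 1.27 in SEVO tumours, with a mean of 2.16 ± 1.21 (SD, n = 6), so it was below 1 in CTRL tumour 1. It depended on which members entered. It was 9.74 for an overlap of at least 10% of the exon bases, which only 4 tested members had, and 1.08 over all 55 members. The 4 highest levels were those of Eif5b, Eif2ak1, Eif4a2 and Eif3a, at 80.5, 68.4, 32.5 and 13.1 CPM per kilobase, and of these Eif3a has no overlap.

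The overlaps took different forms, and which gene of a pair held more reads differed between them. Eif5b meets Rev1, a translesion DNA polymerase gene, tail to tail over 1643 bases, 16.8% of its exon length, and Rev1 had 48 to 106 reads per tumour. Eif3j1 meets Spg11 tail to tail over 1107 bases and Eif4a2 meets Rfc4 over 194 bases. Within Eif2ak1 lies Ankrd61, with 853 reads over the 6 tumours and 172 shared bases, and its end meets that of Aimp2, with 85 reads. In these pairs the Eif gene had as many reads as the neighbour or more, apart from Eif3j1 with 380 against 406 for Spg11. Per kilobase of exon, Ankrd61 was at 70.2 CPM and Eif2ak1 at 68.4 CPM.

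In other pairs the reads lay on the neighbour. Eif3d (chromosome 15, 77958998 to 77970813, minus strand), a subunit that can itself bind a cap, has the largest overlap of all, with 2151 of its 4968 exon bases opposite the antisense gene Gm17638 (chromosome 15, 77961674 to 77967126, plus strand). Eif3d had 28, 12 and 22 reads in CTRL and 6, 18 and 27 in SEVO tumours. Gm17638 had 1064, 2732 and 1597 reads in CTRL and 3196, 2863 and 1917 in SEVO tumours. The antisense gene thus had 13369 reads over the 6 tumours against 113 for Eif3d. Likewise Gm43292, inside Eif2ak3, had 1420 reads against 53, and Ccdc73, which spans Eif3m, had 759 against 37. In 8 of the 16 pairs the neighbour had more reads. None of the 12 neighbours that were tested had an adjusted p under 0.05 from edgeR, and Gm17638 had a log2 fold change of 0.43 ± 0.50 (SE). With the strand setting unknown, reads of an Eif gene and of its opposite neighbour cannot be told apart with certainty.

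**Figure D3:**
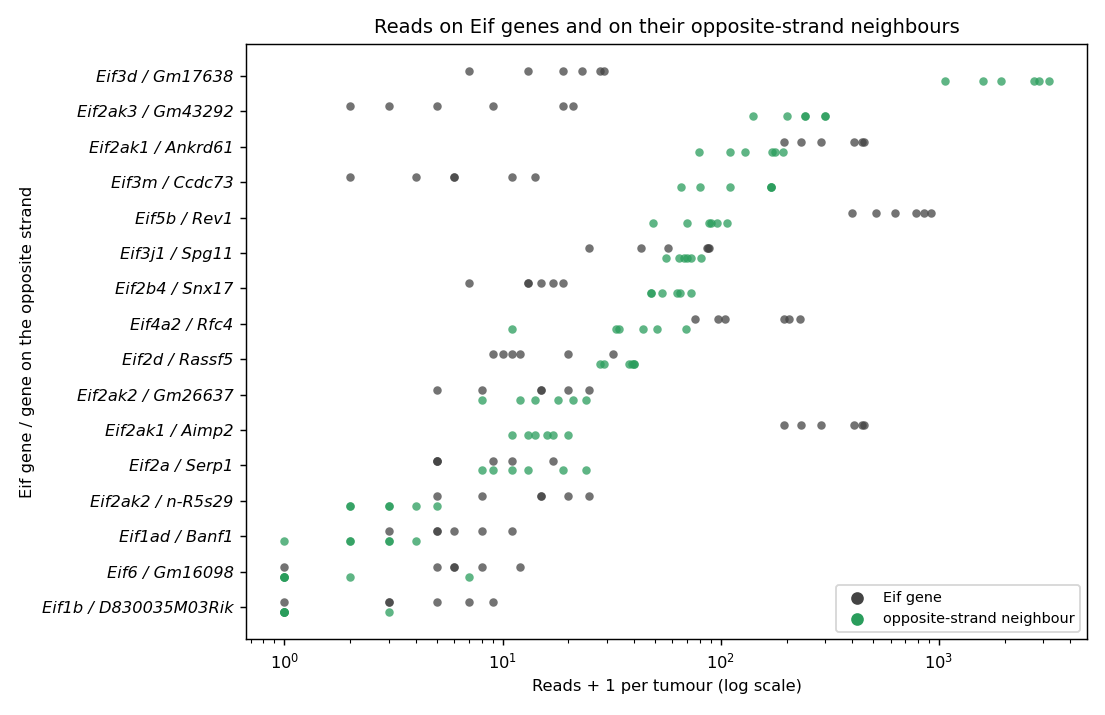
Reads plus 1 (log axis) in each of the 6 tumours for the 16 pairs of an Eif gene (grey) and the gene on the opposite strand (green), ordered by the reads of the neighbour. Gm17638 reaches 3196 reads where Eif3d stays at 28 or below, and Eif5b reaches 915 where Rev1 stays at 106 or below.

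The levels of the tested members were also summed by tumour. Summed over the 8 tested genes with overlap, the level was 957, 2043 and 1099 CPM in CTRL and 1761, 1833 and 1239 CPM in SEVO tumours. Summed over the 21 without, it was 1008, 694 and 877 CPM in CTRL and 361, 481 and 835 CPM in SEVO tumours. The first sum was highest in CTRL tumour 2 and lowest in CTRL tumour 1, the tumours with the lowest and the highest share of reads on Gm10800 and Gm10801, and the second was lowest in SEVO tumours 1 and 2. The first sum was carried by Eif5b, Eif2ak1, Eif4a2 and Eif3j1. Eif2d, Eif2ak2 and Eif3d, which also have overlap, ran the other way among the CTRL tumours, highest in CTRL tumour 1 and lowest in CTRL tumour 2. Of the 8 genes with overlap, 4 were lower in SEVO tumours, with a median log2 fold change of -0.05. Of the 21 without, 18 were lower, with a median of -0.70. The difference between these was not tested. The 9 melanocyte markers summed to 1270, 1320 and 1257 CPM in CTRL and 616, 723 and 1701 CPM in SEVO tumours, so SEVO tumours 1 and 2 were low in both the markers and the Eif genes without overlap. All 8 tested melanocyte markers had negative log2 fold changes, with a median of -0.36. Other cell type lists also differed between tumours, in several patterns. The 6 T and NK cell markers summed to 86.2, 8.78 and 48.2 CPM in CTRL and 24.1, 23.6 and 33.8 CPM in SEVO tumours. For the 5 erythroid markers the sums were 164, 262 and 149 CPM against 220, 193 and 214. For the 3 skeletal muscle markers they were 34.0, 1.25 and 14.9 CPM against 1.15, 8.58 and 14.2. The 5 fibroblast markers summed to 144, 31.4 and 52.8 CPM in CTRL and 21.8, 15.0 and 60.0 CPM in SEVO tumours, and the 4 endothelial markers to 102, 11.3 and 41.3 CPM against 11.5, 8.58 and 43.6. Both lists were lowest in SEVO tumour 2 and highest in CTRL tumour 1. The 9 monocyte and macrophage markers, mostly Csf1r, summed to 191, 277 and 224 CPM against 319, 276 and 225. The low sum in CTRL tumour 1 was that of Csf1r, with 88 reads there and 165 to 257 in the other tumours. Cd68, Adgre1, Fcgr1, Mrc1 and Ly6c2 instead had their highest counts in CTRL tumour 1, with 17, 9, 10, 23 and 4 reads. Lyz2, Itgam and Cd14 had at most 4 reads in any tumour. The part of these marker lists and of the Gm10800 and Gm10801 share in the Eif values was not tested.

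**Figure D4:**
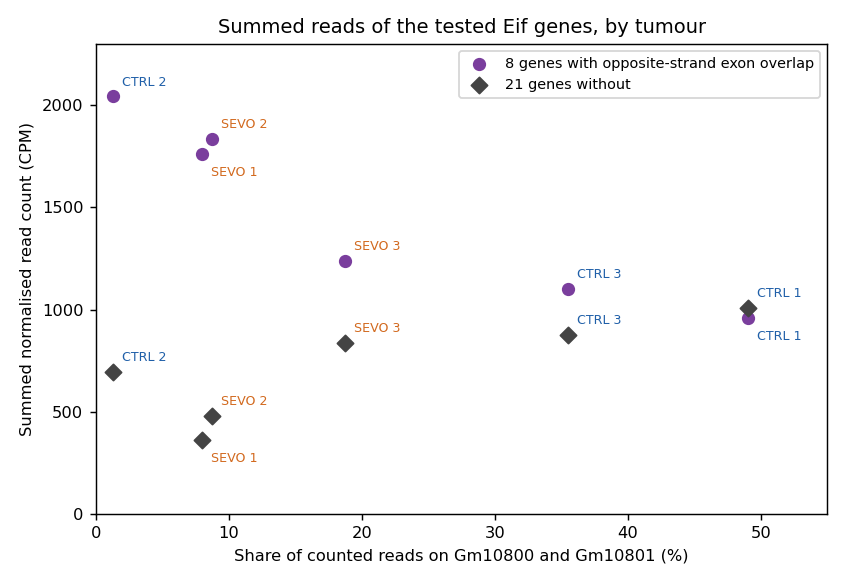
Summed CPM of the 8 tested Eif genes with opposite-strand exon overlap (circles) and of the 21 without (diamonds) in each tumour, against the share of counted reads on Gm10800 and Gm10801. The circles run from 2043 CPM at a share of 1.31% down to 957 CPM at 49.0%, and the lowest diamonds are SEVO tumours 1 and 2 at 361 and 481 CPM.

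Other genes of protein synthesis were described with the lists that belong to the pathway. Of 15 elongation and termination factors, 8 were tested and all 8 were lower in SEVO tumours, with a median log2 fold change of -0.53 and 0 at an unadjusted p under 0.05. The lowest p belonged to Etf1, the stop codon release factor, with 26.7, 23.8 and 20.7 CPM against 4.60, 4.29 and 20.7 and a log2 fold change of -1.25 ± 0.65 (SE), also the most negative value, and Gspt1, its partner, had the value nearest to 0 at -0.15 (SE 0.31). In Eef1b2, an exchange factor for the elongation factor that delivers tRNA, the groups did not overlap, with 57.1, 56.4 and 57.4 CPM against 31.0, 26.8 and 54.5 and SEVO below, as in 4.39% of all tested genes. Of 26 regulators and partners of initiation, 25 matched by symbol and 15 were tested, with 12 lower, 3 higher and a median log2 fold change of -0.81. Ddx3x, an RNA helicase that helps to translate structured leaders, was the only one of the 15 at the thresholds of the study, which 1.04% of all tested genes passed. It had 51.0, 46.4 and 75.7 CPM in CTRL and 19.5, 21.5 and 33.8 CPM in SEVO tumours, a log2 fold change of -1.21 ± 0.38 (SE, unadjusted p = 0.00742, adjusted p = 0.741 from edgeR). Every SEVO tumour lay below every CTRL tumour in Ddx3x, as in Denr and Mknk2, a pattern found in 4.39% of all tested genes. The kinase gene Mtor had the most negative value of this list, -1.24 (SE 0.89), and Pdcd4, an inhibitor of eIF4A, the most positive, 0.61 (SE 0.42).

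Targets of the integrated stress response, the programme that phosphorylated eIF2 sets off, were mostly too low to test. Of 16 genes, 3 passed the filter, with a median log2 fold change of 0.36. Ddit3, which encodes the transcription factor CHOP, had the lowest p and the most positive value, with 78.9, 120 and 91.8 CPM in CTRL and 146, 161 and 125 CPM in SEVO tumours. Every SEVO tumour lay above every CTRL tumour, as in 315 of the 7561 tested genes. The log2 fold change was 0.57 ± 0.32 (SE, adjusted p = 0.741 from edgeR). Atf4, the factor that is itself translated more when eIF2 is phosphorylated, had 14, 10 and 16 reads against 10, 8 and 21, a log2 fold change of -0.16 ± 0.58 (SE). Cebpg lay between them at 0.36 (SE 0.49). No gene of the 3 lists had an adjusted p under 0.05.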

How the data were processed

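RNA-seq libraries of 6 tumours were used, 3 per group, grouped by their GEO titles. The authors removed ribosomal RNA reads with SortMeRNA, trimmed with Trimmomatic 0.36, aligned with STAR 2.6.0c to GRCm38.p6, kept unique reads and counted them with HTSeq 0.9.1 on GENCODE release M17, with SAMtools 1.8.3 for conversion (versions from the submitters' processing notes). The deposited values are raw counts per gene, without normalization. Reads on no feature, 95.4% to 97.9% of the uniquely aligned reads, and ambiguous reads stayed out of library sizes and tests. Of 53801 gene identifiers, 53706 matched GENCODE release M21 on the same build without their version, which gave names, positions, exon lengths and overlaps.

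Counts were compared with edgeR 4.0.16 in R 4.3.3 (TMM, filterByExpr, quasi-likelihood fit, Benjamini-Hochberg adjustment over 7561 genes), without covariates. Standard errors were derived from the F statistic. Values per kilobase use merged exons. The fits were also run on simulated counts with known folds and a common dispersion for all genes, and the outcome is not reported here. The authors prepared and sequenced all libraries together, and what the tumour numbers mark is not given in the sources used here. P-values of edgeR set the difference between groups against the spread between tumours, which was estimated with information shared across genes. Depth limits the precision of low genes. Alternatives changed the normalization, the filter, the tool (DESeq2 1.42.0), the dispersion, the library size or the tumours included. The scaling by uniquely aligned reads and the median over members without overlap were added after seeing the data. The members and lists were chosen with earlier results of these data known. Named were the 5 tested members with the lowest p, the largest rise and fall, the highest level per factor, the Eif2ak kinases, the eIF4F, 4E-BP and eIF2 genes, members whose groups did not overlap and those with at least 10% of exon bases opposite another gene, and any other gene was named after its values were seen. Python 3.11.15 made the tables.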

Additional observations from a re-analysis of the deposited data

How the results depend on the processing

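The number of tested Eif genes at the thresholds of the study was 0. It was 1 of 14 with at least 10 reads in every tumour (Eif3a), beside 1.52% of all genes. With the tumour number as a replicate block it was 2 of 29 (Eif4b and Eif4g2), beside 1.71% of all genes. At an unadjusted p under 0.05 it was 2, beside 4.36% of all genes. With a tumour left out it ranged from 0 to 6, beside 0.144% to 16.2% of all genes. At an adjusted p under 0.05 the number was 0 in all 15 alternatives, the block included. Over all genes it was 31 of 8961 without CTRL tumour 2, 1 of 7561 with the block and 0 in the rest. Same-numbered tumours had correlations of -0.40, 0.32 and 0.08 of their deviations from the group means over 7561 genes. So few values cannot show whether the numbers mark pairs of tumours. Groups did not overlap in 2 Eif genes, beside 8.56% of all genes, and in 1 with library size only, beside 8.68%. With a tumour left out the number was 2 to 13, where fewer tumours make a separation more frequent in all genes too. It was 13 of 30 without SEVO tumour 3, beside 31.9% of all genes, and 12 of 31 without CTRL tumour 2, beside 46.6%. The median log2 fold change of -0.51 was below 0 in every alternative, and leaving out a tumour gave -1.07 to -0.22. Library size only moved the median of all genes to 0.22 from -0.02 and that of the Eif genes to -0.22. With no filter on low counts these were -0.38 and -0.27, and with DESeq2 -0.55 and -0.43. In the no-filter and DESeq2 fits, which include genes with few reads, the Eif median thus lay above that of all genes. The level ratio by overlap was 2.16 and became 9.74 with at least 10% of exon bases, which only 4 tested members had. Of 276 values of 19 named genes under the alternatives, 268 kept their direction and their side of an adjusted p of 0.05 and 8 changed sign, all within their standard error of 0. With no filter these were the log2 fold changes of Eif2b4 (0.090), Eif2ak4 (0.20), Eif4a1 (0.047) and Eif3d (0.12), and with DESeq2 that of Eif2ak4 (0.020). With a tumour left out, Eif2b4 ranged from -0.68 to 0.0043 and Eif3d from -0.86 to 0.059, both above 0 without SEVO tumour 1, and Eif2ak4 from -0.69 to 0.060, above 0 without SEVO tumour 2. Scaling by uniquely aligned reads gave a median of -0.61 beside -0.23 over all genes. The cause was not tested. The median count was 74 reads per Eif gene over 6 tumours and the common biological coefficient of variation 0.398, and what size of difference these could show was not tested on the Eif genes.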
